A study of Mus musculus with 31 samples.

Results

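The genes described here make, sense, move and export cholesterol: 33 genes chosen by their known roles in the pathway, with earlier results of these data known. They comprise 5 genes of sterol sensing and control, 19 enzymes of synthesis, 4 genes of transport and storage and 5 efflux genes. Of these, 32 had an identifier among the 29120 gene IDs of the count files. Hmgcs1, which makes the precursor of mevalonate, matched no ID under its Ensembl number, so its level was not analysed here and 18 synthesis enzymes remain. All 32 passed the filter on low counts in each fit.

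The study sequenced RNA from C57BL/6 mice labelled Gpr34-/- and wildtype, Gpr34 being a G protein-coupled receptor of immune cells. The 31 libraries formed 6 groups. They were LPS-treated dendritic cells labelled knockout and wild-type (3 libraries each), naive dendritic cells labelled knockout and wild-type (3 each), 9 knockout spleens and 10 wild-type spleens. The dendritic cells came from marrow of male mice aged 8 to 16 weeks, grown for 10 days with GM-CSF from a secreting cell line. All 4 dendritic cell groups were then moved to serum-free medium, and the LPS groups received LPS, a bacterial cell wall component, on day 11 for 8 h. The dose of LPS is not given in the sources used here. The spleens were whole organs of mice aged 12 weeks with no treatment named. No animal is named for any library, so p-values measure only the spread between libraries, which may in part be technical. In whole spleens and in cultures, fewer cells of a type and less RNA per cell cannot be told apart.

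Cells hold their cholesterol within narrow bounds through a pair of opposed programmes. When sterols in the endoplasmic reticulum are low, SCAP escorts the factor SREBP-2 (gene Srebf2) to the Golgi apparatus, where it is cut, enters the nucleus and switches on nearly every enzyme of synthesis. INSIG proteins hold the complex back when sterols are plentiful. Oxysterols then activate the liver X receptors LXR-alpha (Nr1h3) and LXR-beta (Nr1h2), which switch on the exporters Abca1 and Abcg1 and the ubiquitin ligase Mylip, which degrades lipoprotein receptors. In macrophages and dendritic cells these programmes are known to respond to inflammatory signals.

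Several dendritic cell libraries labelled knockout held Gpr34 counts. After LPS, the cells labelled knockout held 0 (replicate 2), 117 (replicate 3) and 104 (replicate 4) Gpr34 counts, against 65 to 125 in wild-type cells. Naive cells labelled knockout held 0, 120 and 4 of them in the same order, against 199 to 324 in wild-type cells. Over 100 counts were thus present in 3 of 6 dendritic cell libraries with the knockout label, and values without these 3 libraries are given beside the edgeR genotype results of the dendritic cells. Knockout spleens held 42 to 156 Gpr34 counts and wild-type spleens 308 to 986. None of these counts is scaled by library size. Naive replicate 3 labelled knockout had the largest total of the dendritic cell libraries, and its 120 counts lay below every naive wild-type library. LPS-treated replicates 3 and 4 labelled knockout lay within the wild-type range. Library totals were 38998746 to 74164853 counts in dendritic cells and 56834377 to 133277070 in spleens. All 6 dendritic cell markers and all 5 macrophage markers were detected in every dendritic cell group, with summed levels of 10450 to 18760 CPM (counts scaled by library size) and 694.5 to 2211 CPM. Summed B cell markers did not exceed 3.34 CPM there, against at least 920.5 CPM in every spleen. The summed dendritic cell markers, at 8577 to 21000 CPM in spleens, did not set the cultures apart from whole spleen.

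The promoters of 4 members are shown from 250 bases before to 50 bases after the transcription start (RefSeq, GRCm38.p6). Srebf2 and Idi1 passed the genotype test in spleen, Mvk held the most boxes of these 4, and Abca1 is the efflux gene with the lowest fold change in spleen and the highest in LPS-treated cells labelled knockout against wild type, passing the edgeR test in neither. Capitals mark the NF-Y box CCAAT, read on either strand (ATTGG on the printed one). The Srebf2 window is chr15:82147019-82147318 on the plus strand, Idi1 chr13:8885356-8885655 (plus), Mvk chr5:114444019-114444318 (plus) and Abca1 chr4:53159846-53160145 (minus).
Srebf2: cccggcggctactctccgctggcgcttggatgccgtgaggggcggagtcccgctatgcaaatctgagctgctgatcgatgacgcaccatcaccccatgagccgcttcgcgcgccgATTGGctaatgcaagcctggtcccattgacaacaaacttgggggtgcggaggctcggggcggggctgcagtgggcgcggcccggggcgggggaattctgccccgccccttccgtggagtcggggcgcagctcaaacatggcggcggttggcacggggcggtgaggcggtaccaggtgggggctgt
Idi1: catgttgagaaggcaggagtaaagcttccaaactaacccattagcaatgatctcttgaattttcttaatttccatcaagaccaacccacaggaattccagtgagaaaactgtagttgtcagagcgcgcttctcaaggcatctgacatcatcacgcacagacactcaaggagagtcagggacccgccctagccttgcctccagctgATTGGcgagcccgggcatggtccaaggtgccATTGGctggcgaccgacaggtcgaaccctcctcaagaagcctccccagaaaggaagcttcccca
Mvk: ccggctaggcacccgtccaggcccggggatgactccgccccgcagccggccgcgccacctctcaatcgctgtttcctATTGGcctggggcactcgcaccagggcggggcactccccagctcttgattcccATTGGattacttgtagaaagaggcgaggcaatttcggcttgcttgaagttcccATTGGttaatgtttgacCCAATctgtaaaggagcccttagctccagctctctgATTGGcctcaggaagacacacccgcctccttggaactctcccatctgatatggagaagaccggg
Abca1: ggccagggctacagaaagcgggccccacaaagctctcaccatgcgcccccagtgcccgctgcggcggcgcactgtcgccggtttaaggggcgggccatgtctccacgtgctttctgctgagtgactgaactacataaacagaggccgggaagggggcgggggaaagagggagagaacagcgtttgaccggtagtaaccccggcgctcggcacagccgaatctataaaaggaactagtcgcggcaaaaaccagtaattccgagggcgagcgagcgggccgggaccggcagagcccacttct

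The boxes numbered 1 in Srebf2, 2 in Idi1, 5 in Mvk and 0 in Abca1. Mvk is shown for its number of boxes, so its contrast with Abca1 follows from the choice. Of the promoters not shown, that of the efflux gene Mylip held 3 and that of the synthesis enzyme Acat2 held 0. NF-Y is a factor known to act beside SREBP at promoters of synthesis genes. The box stood in 15 of 19 promoters of 16 matched synthesis enzymes (78.9%), in 5 of 10 promoters of the 5 control genes and in 1 of 5 promoters of the 4 matched efflux genes, that of Mylip. Among all 32851 mouse promoters of this length 37.4% held it. The core of the sterol regulatory element, TCACCCCAC on either strand, was found in 1 member promoter, Hmgcs1, and in 0.551% of all promoters. Its looser form TCACNCCAC was found in the same member promoter and in 1.24% of all, and the 2 forms overlap by construction. An LXR element was searched by name only as exact direct repeats of AGGTCA with 4 bases between them. It was found in 0 of 36 member promoters and in 0.0152% of all. At so low a share 0 was near certain in advance, and forms that differ in any letter were not searched. The search therefore cannot say whether these windows hold LXR elements. On GRCm38, Srebf2 (ENSMUSG00000022463) spans chr15:82147181-82205379, Idi1 (ENSMUSG00000058258) chr13:8885501-8892451, Mvk (ENSMUSG00000041939) chr5:114444269-114460591 and Abca1 (ENSMUSG00000015243) chr4:53030787-53159895, all protein-coding. A match is only a match of letters, and its absence says nothing of variant forms in this window or of binding elsewhere.

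Levels per kilobase of exon set the members in order within naive wild-type dendritic cells. Npc2, which hands cholesterol out of the lysosome, came first at 85.7 CPM per kilobase and Nr1h2 second at 77.6. Srebf1, whose product mainly drives fatty acid genes, followed at 46.7, Pmvk at 39.4 and Srebf2 at 28.8 CPM per kilobase. The lowest were Idi1 at 1.54, Hsd17b7 at 1.12 and Fdps at 0.986 CPM per kilobase. In wild-type spleens Nr1h2 came first at 62.6 CPM per kilobase, followed by Nr1h3 at 61.2 and Srebf1 at 31.7, and Fdps again came last at 0.448. Nr1h3 averaged 154 ± 17.97 CPM in wild-type spleens (SD, n = 10) and 8.71 ± 2.05 CPM in naive wild-type dendritic cells (SD, n = 3). Abcg1 had the opposite order, at 24.97 ± 4.96 CPM in wild-type spleens and 151 ± 5.63 CPM in naive wild-type dendritic cells (SD, n = 10 and n = 3). These levels between sources are descriptions, since tissue and culture differ in every respect.

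**Figure D1:**
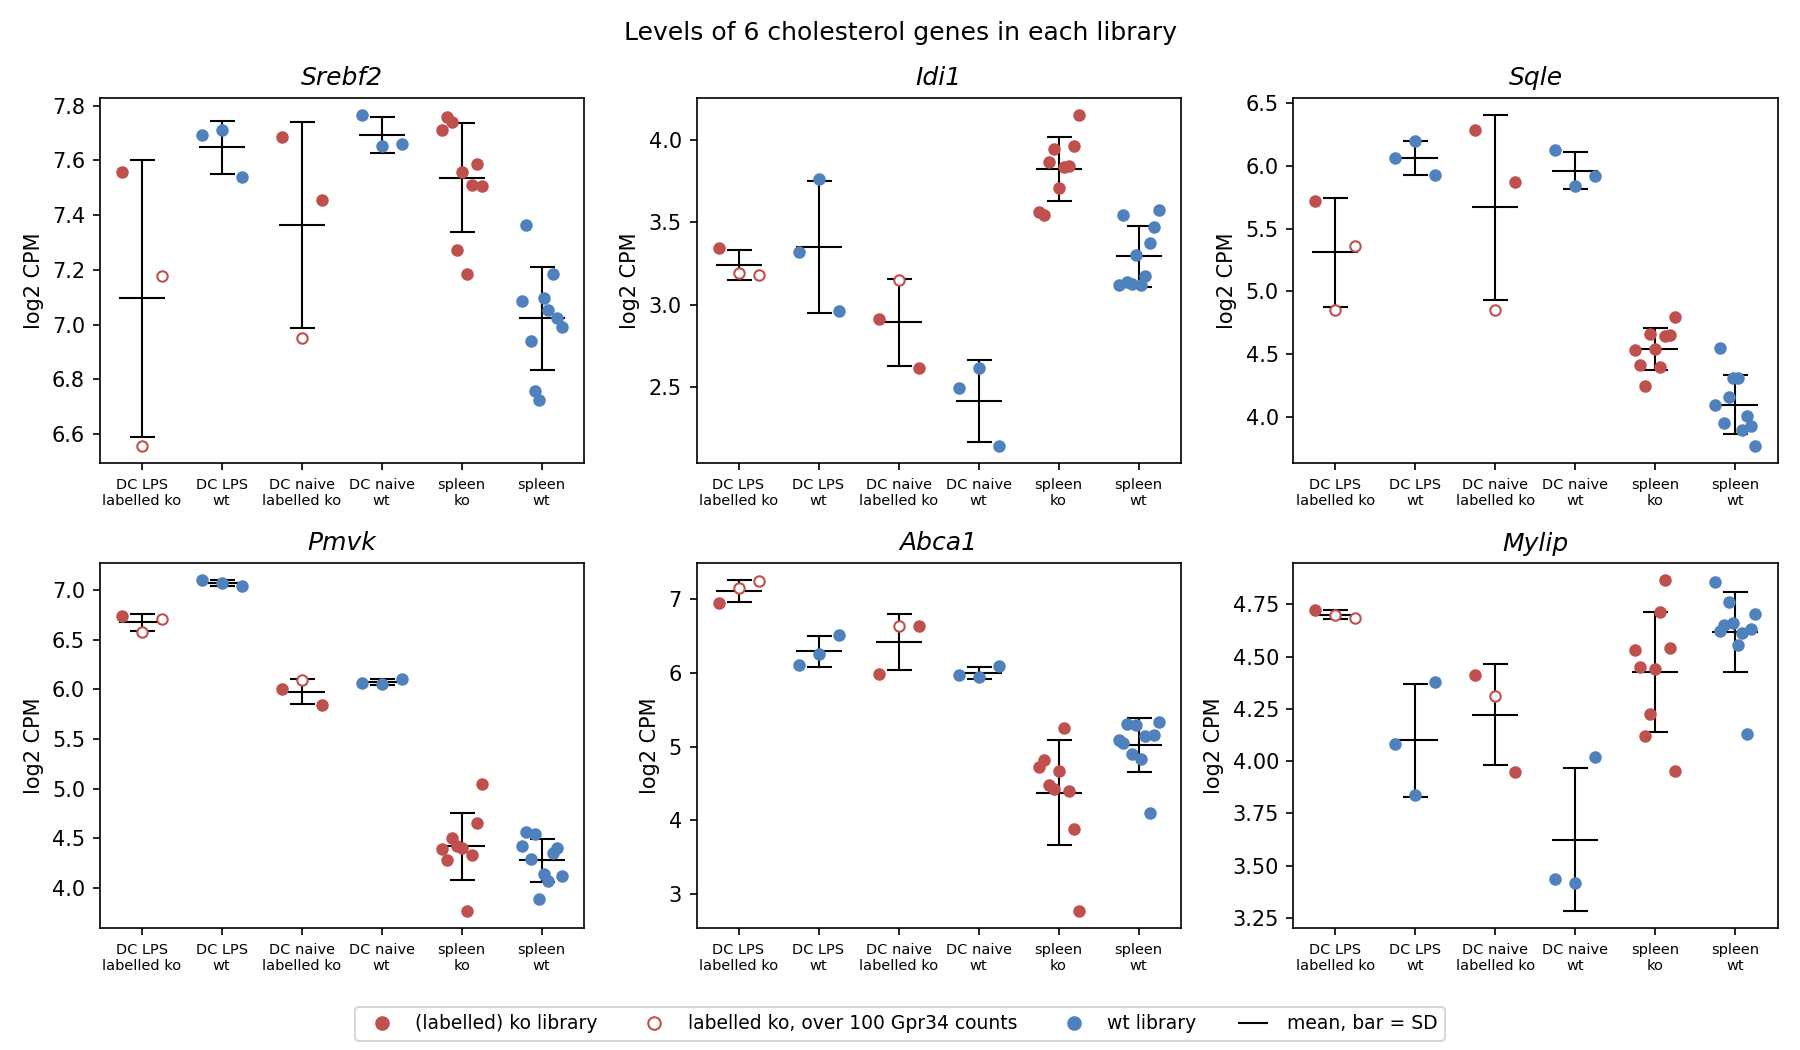
Level (log2 CPM, linear axis that does not start at 0) of 6 genes in each library of the 6 groups, with knockout or labelled knockout left of wild-type. Each point is 1 library, open points are libraries labelled knockout with over 100 Gpr34 counts, and bars show the mean and SD. Srebf2, Idi1 and Sqle sit higher in knockout than in wild-type spleens on average, whereas Abca1 sits lower in most knockout spleens and higher in LPS-treated cells labelled knockout.

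The plot of levels by library shows where the groups separate and where 1 library sets the mean. Srebf2 had 188, 94.0 and 145 CPM in LPS-treated replicates 2, 3 and 4 labelled knockout, 207, 209.7 and 186 CPM in LPS-treated wild-type replicates, 206, 124 and 176 CPM in naive cells labelled knockout, and 218, 201 and 202 CPM in naive wild-type replicates. Replicate 3 labelled knockout was the lowest library in both treatments, and both libraries so numbered hold Gpr34. Insig1, an INSIG gene that is itself a target of SREBP, had 18.6, 11.9 and 18.5 CPM in the labelled knockout cells given LPS, 19.8, 17.7 and 17.2 CPM in LPS-treated wild-type cells, 16.8, 8.11 and 12.5 CPM in naive cells labelled knockout, and 13.1, 12.7 and 14.04 CPM in naive wild-type cells. Its lowest library in each treatment was again replicate 3.

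After LPS, members passed the test in both directions in wild-type dendritic cells, as did many other genes. Of the 32 members 5 rose and 4 fell, against 18.1% of all 16965 genes tested that rose and 15.8% that fell, and 23 members did not pass the test. The 5 that rose were Pmvk, Idi1, Npc2, Abcg1 and Nr1h2. The 4 that fell, Acat2, Tm7sf2, Dhcr7 and Lbr, are all among the 18 measured synthesis enzymes, of which Pmvk and Idi1 rose. The median log2 fold change was 0.06 over the 32 members and -0.03 over all genes. In cells labelled knockout 5 members rose (15.3% of all genes) and 7 fell (13.4% of all genes), with a median of -0.18 over the members and -0.02 over all genes. Without the scaling for library composition 1 member rose and 11 fell in wild-type cells, where 1599 of all 16965 genes rose and 6128 fell. Likewise 1 member rose and 13 fell in cells labelled knockout, where 1441 of all genes rose and 4986 fell. The median of all genes was then -0.44 in wild-type cells and -0.35 in cells labelled knockout. In wild-type cells 10 rose and 9 fell with only the compared libraries, and likewise 10 and 9 without the libraries that hold Gpr34. With only the compared libraries 3121 of all 15936 genes rose and 2988 fell. Voom put the number of members that fell at 8 (3235 of 16965 genes), and leaving out naive replicate 2 labelled knockout put it at 7 (2851 of 17610 genes). The knockout label had 3 that rose and 4 that fell with only the compared libraries (1837 and 1571 of 15844 genes). There 3 rose without LPS-treated replicate 4 (2079 of 17479 genes). Without naive replicate 2 it was 4 that fell (1585 of 17610 genes), and without naive replicate 3 it was 11 (2672 of 17455 genes).

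Among the early enzymes, which build isoprene units from acetyl-CoA, members moved in opposite directions. Pmvk, phosphomevalonate kinase, had 138, 135 and 132 CPM in LPS-treated wild-type replicates 1, 2 and 3, against 66.8, 66.6 and 69.1 CPM in naive wild-type replicates 1, 2 and 4. The groups did not overlap, and the log2 fold change was 0.996 (SE 0.08, adjusted p = 9.92e-06, edgeR quasi-likelihood test). In cells labelled knockout it had 107, 95.6 and 104 CPM after LPS and 64.1, 68.2 and 57.2 CPM in naive replicates, or 0.70 on the log2 scale (SE 0.08, adjusted p = 0.000151). Idi1, which isomerises the isoprene unit, rose in wild-type cells by 0.96 (SE 0.22, adjusted p = 0.00633), with a log2 fold change of 0.33 (adjusted p = 0.292) in cells labelled knockout. Acat2, the thiolase that joins the first acetyl units, had 26.6, 26.2 and 16.6 CPM in LPS-treated wild-type replicates and 45.6, 53.3 and 44.2 CPM in naive wild-type replicates. It had 18.7, 12.4 and 14.8 CPM in LPS-treated and 45.0, 25.2 and 45.6 CPM in naive replicates labelled knockout. Every LPS-treated library lay below every naive library of the same label, and the log2 fold changes were -1.04 in wild-type cells (adjusted p = 0.00859) and -1.34 in cells labelled knockout (adjusted p = 0.00284). Mvk, the kinase of mevalonate, Mvd and Fdps gave log2 fold changes of 0.02, -0.48 and 0.67 in wild-type cells, and none of these 3 passed the test.

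Of the late enzymes, which turn lanosterol into cholesterol, Tm7sf2, Dhcr7 and Lbr fell in both labels, whereas Msmo1, Nsdhl, Hsd17b7 and Sc5d passed in neither. Tm7sf2, a sterol C14 reductase, had 25.6, 25.3 and 35.4 CPM in LPS-treated wild-type replicates, against 60.3, 61.9 and 67.2 CPM in naive wild-type replicates. Lbr, an inner nuclear membrane protein with the same reductase activity, had 2.42, 3.63 and 2.21 CPM after LPS, against 10.3, 11.0 and 9.95 CPM in naive wild-type replicates. For both genes the LPS-treated libraries lay wholly below the naive ones. Their log2 fold changes were -1.13 (SE 0.23, adjusted p = 0.00275) for Tm7sf2 and -1.91 (SE 0.32, adjusted p = 0.00104) for Lbr. In cells labelled knockout Tm7sf2 had 22.1, 17.4 and 21.8 CPM after LPS and 73.6, 37.6 and 63.8 CPM in naive replicates, and Lbr had 2.74, 3.42 and 1.94 CPM after LPS and 12.6, 5.36 and 9.55 CPM in naive replicates. Both fell there as well, with log2 fold changes of -1.51 for Tm7sf2 (adjusted p = 0.000671) and -1.76 for Lbr (adjusted p = 0.00213). Dhcr7, which reduces the last double bond on one route to cholesterol, fell by 1.90 in wild-type cells (SE 0.49, adjusted p = 0.0114) and by 2.31 in cells labelled knockout (adjusted p = 0.00533). Cyp51, the lanosterol demethylase, and Ebp, the sterol isomerase, fell in cells labelled knockout by 0.85 and 0.87 (adjusted p = 0.0291 and 0.0125), with log2 fold changes of -0.52 and -0.59 that did not pass in wild-type cells (adjusted p = 0.148 and 0.0571). Tm7sf2 shares 532 exonic bases in all with Vps51 on its own strand and Lbr shares 509 with genes that include Dnah14, so reads of those genes may be among theirs.

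Other enzymes, from squalene synthesis to the late steps, were not called after LPS in either label. Sqle, squalene epoxidase and a slow step of the pathway, had 66.8, 73.6 and 60.8 CPM in LPS-treated wild-type replicates, against 69.8, 57.4 and 60.5 CPM in naive wild-type replicates. The groups overlapped, at 0.10 on the log2 scale (SE 0.31, adjusted p = 0.838). Sqle in cells labelled knockout had 52.8, 28.9 and 41.0 CPM after LPS and 78.1, 28.9 and 58.7 CPM in naive replicates (log2 fold change -0.43, adjusted p = 0.331). Fdft1, Lss, Msmo1, Nsdhl, Hsd17b7 and Sc5d had log2 fold changes between -0.44 (Sc5d) and 0.96 (Hsd17b7) in wild-type cells and between -0.79 (Sc5d) and 0.39 (Hsd17b7) in cells labelled knockout. Srebf2 itself had a log2 fold change of -0.04 (adjusted p = 0.911) in wild-type cells and -0.24 (adjusted p = 0.472) in cells labelled knockout. Insig1 gave 0.46 (adjusted p = 0.177) in wild-type cells, where the groups did not overlap and it passed with only the compared libraries (adjusted p = 0.0202), and 0.39 (adjusted p = 0.266) in cells labelled knockout. Srebf1, Scap and Insig2 did not pass in either.

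Each of the 5 efflux genes had a log2 fold change above 0 after LPS in both labels, except that Abca1 was at -0.12 in wild-type cells without composition scaling. Of the 5, 2 rose in wild-type cells (18.1% of all genes) and 3 in cells labelled knockout (15.3% of all genes), and 0 were called in either without that scaling. Abcg1, an exporter of cholesterol to HDL, had 252, 229.5 and 213 CPM in LPS-treated wild-type replicates, against 156, 153 and 145 CPM in naive wild-type replicates. Nr1h2 had 352, 339 and 367 CPM after LPS, against 263, 256 and 262 CPM in naive wild-type replicates. The libraries of the 2 treatments did not overlap for either gene, with log2 fold changes of 0.61 (SE 0.14, adjusted p = 0.00553) for Abcg1 and 0.44 (SE 0.08, adjusted p = 0.00169) for Nr1h2. In cells labelled knockout Abcg1 had 220.2, 226 and 242 CPM after LPS and 149, 219 and 151 CPM in naive replicates (log2 fold change 0.41, adjusted p = 0.0455). Nr1h2 had 357, 394 and 349 CPM after LPS and 256, 285 and 242 CPM in naive replicates (log2 fold change 0.49, adjusted p = 0.00112). The Abcg1 call in cells labelled knockout was lost without any 1 of 11 of the 12 dendritic cell libraries in turn, at adjusted p up to 0.172, and its value stayed between 0.30 and 0.44.

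Abca1, which loads cholesterol onto apolipoprotein A-I, had 124, 143 and 152 CPM in LPS-treated replicates 2, 3 and 4 labelled knockout, and 63.2, 99.8 and 99.6 CPM in naive replicates labelled knockout. These did not overlap, and it rose by 0.67 (SE 0.17, adjusted p = 0.0134), a call lost without replicate 4 of the LPS-treated group (adjusted p = 0.0509) and without the 3 libraries that hold Gpr34 (0.56, adjusted p = 0.169). In wild-type cells it had 69.1, 76.2 and 91.5 CPM after LPS and 62.6, 61.8 and 68.5 CPM in naive replicates, which also did not overlap, at a log2 fold change of 0.30 (adjusted p = 0.215). Nr1h3 varied widely, at 7.87, 17.7 and 12.0 CPM in LPS-treated and 10.7, 8.80 and 6.61 CPM in naive wild-type replicates, and at 8.48, 6.49 and 17.0 CPM in LPS-treated and 6.16, 3.27 and 8.60 CPM in naive replicates labelled knockout. Its groups overlapped in both labels.

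Among the 4 genes of transport and storage, Npc2 rose in both labels, calls that were lost without composition scaling (0.08 in wild-type cells, adjusted p = 0.494, and 0.18 in cells labelled knockout, adjusted p = 0.126). The call in cells labelled knockout was also lost without the libraries that hold Gpr34 (0.42, adjusted p = 0.0681). It had 650.1, 576 and 739 CPM in LPS-treated wild-type replicates, against 454, 475 and 470.1 CPM in naive wild-type replicates, and 605, 671 and 648 CPM in LPS-treated against 457, 469.9 and 427 CPM in naive replicates labelled knockout. No LPS-treated library overlapped a naive one, and the log2 fold changes were 0.49 in wild-type cells (adjusted p = 0.00204) and 0.51 in cells labelled knockout (adjusted p = 0.00218). Soat1, which esterifies cholesterol for storage, fell by 0.87 in cells labelled knockout (adjusted p = 0.0185) and gave -0.62 in wild-type cells (adjusted p = 0.0649). Npc1, the membrane partner of Npc2, and Stard4, a carrier of cholesterol in the cytosol, gave -0.30 and -0.20 in wild-type cells and passed in neither label.

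**Figure D2:**
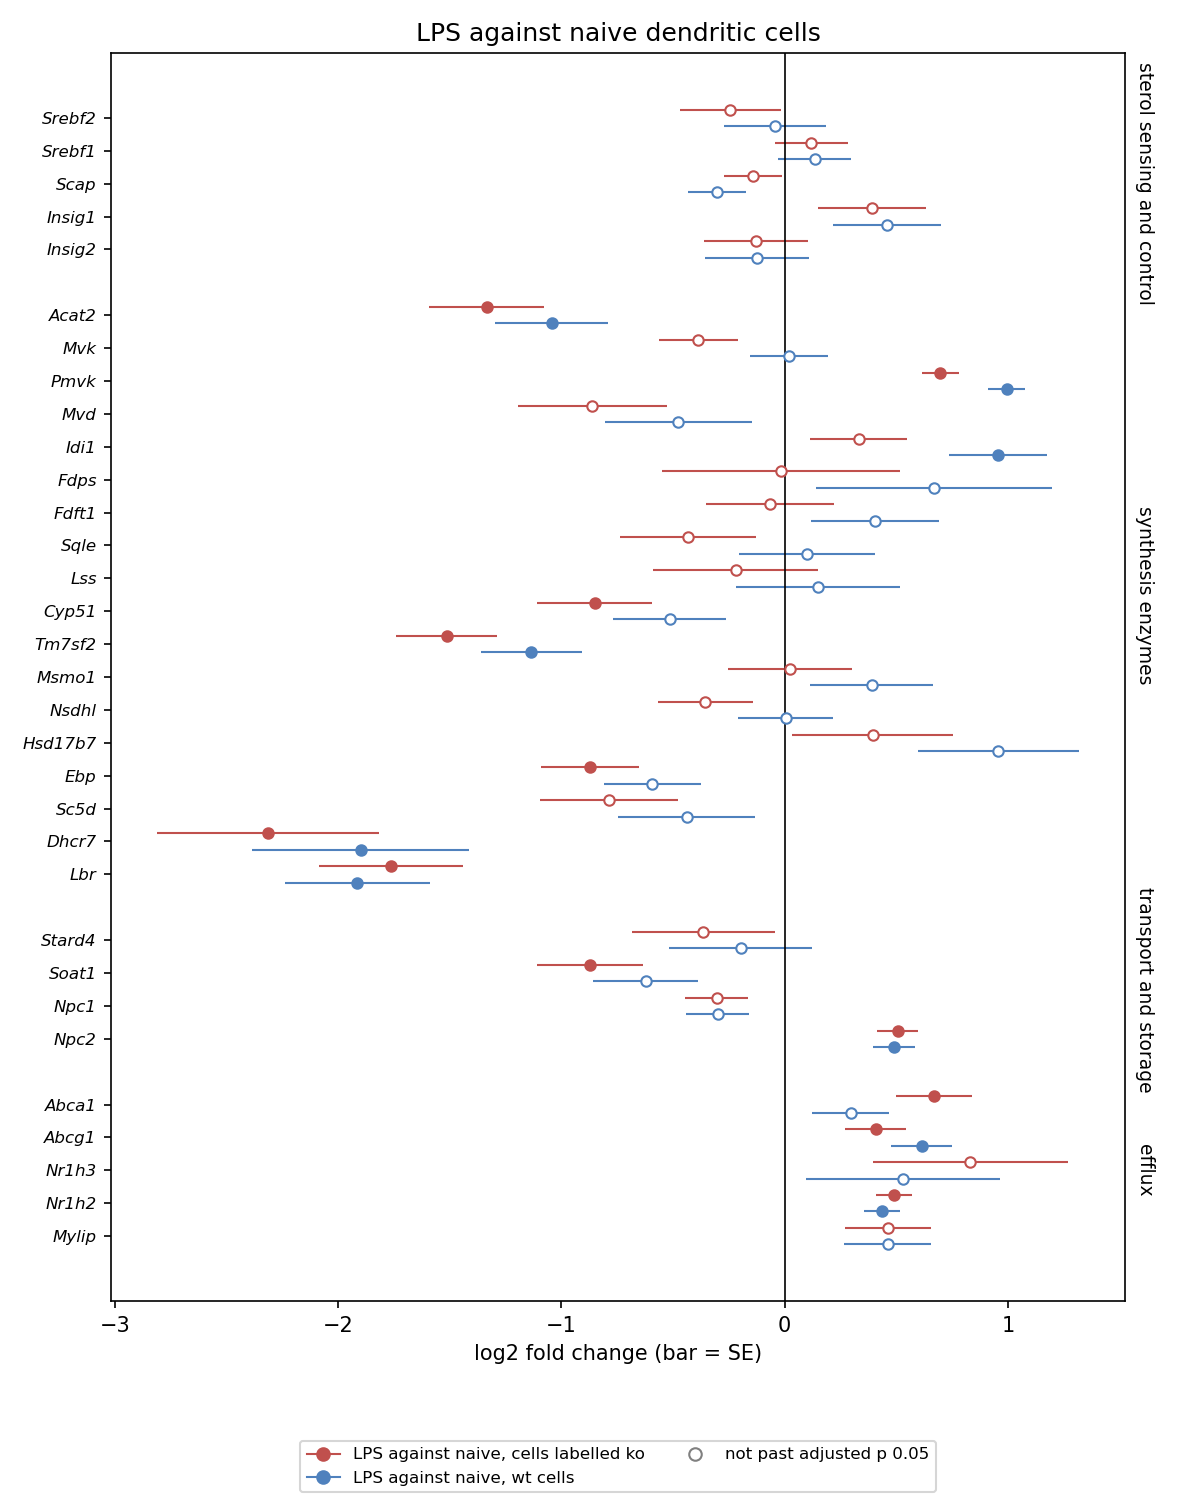
Log2 fold change of LPS against naive dendritic cells for the 32 measured members by role, in cells labelled knockout (red) and in wild-type cells (blue), each with its SE from edgeR over all 12 dendritic cell libraries. Filled points passed an adjusted p of 0.05. Acat2, Tm7sf2, Dhcr7 and Lbr lie left of 0 and the 5 efflux genes right of 0 in both, where Abca1 in wild-type cells is at -0.12 without composition scaling.

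Markers of dividing cells moved with LPS as well. Of the 5 markers 4 fell in each label. Their summed level was 49.3 to 73.6 CPM in LPS-treated cells labelled knockout, against 67.8 to 258 CPM in naive cells labelled knockout, and 50.7 to 70.4 CPM in LPS-treated against 200.9 to 223 CPM in naive wild-type cells. The part of dividing cells in the fall of Dhcr7, Lbr, Tm7sf2 and Acat2 was not tested. The interaction of label and LPS called 0 of 32 members and 0 of all genes (0% of 16965), and at an unadjusted p under 0.05 it held 1 member, Pmvk, against 4.00% of all genes. Its sign was below 0 for 25 of 32 members (52.7% of all genes), and for 24 of 32 without the libraries that hold Gpr34, where Pmvk was at -0.19 (adjusted p = 0.975).

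Over 5 related lists, 12 of 58 tested genes rose and 11 fell in wild-type cells, where 18.1% of all genes rose and 15.8% fell. Under the knockout label 9 of the 58 rose and 13 fell, where 15.3% of all genes rose and 13.4% fell. Of 12 genes of fatty acid synthesis 5 fell and 1 rose in wild-type cells after LPS. They include Fads1, a desaturase of polyunsaturated fatty acids (-2.09, adjusted p = 0.000382), Elovl6, an elongase (-1.72, adjusted p = 0.00142), and Scd1, the stearoyl-CoA desaturase (-1.34, adjusted p = 0.000707). Of 11 genes of lipoprotein uptake and lysosomal release 5 rose and 2 fell. Lrp8, a receptor of the LDL receptor family, averaged 211 CPM after LPS and 21.6 CPM in naive wild-type cells (3.29, adjusted p = 0.000159), and Olr1, a receptor of oxidised LDL, averaged 60.6 CPM after LPS and 14.6 CPM in naive wild-type cells (2.06, adjusted p = 0.000319). Stard3, a late endosomal cholesterol carrier, rose by 1.10 (adjusted p = 8.01e-05). Of 13 tested genes of oxysterols, LXR partners and other transport 2 rose and 3 fell, among them Ch25h, which makes 25-hydroxycholesterol (3.05, adjusted p = 0.00068), Cyp27a1, which makes 27-hydroxycholesterol (-1.73, adjusted p = 2.44e-05), and Nceh1, a hydrolase of cholesteryl esters (-2.15, adjusted p = 0.00046). Of 10 genes of SREBP processing and sterol-regulated degradation 3 rose, Rnf139 and Syvn1 among them, and 1 fell, March6. Without composition scaling Rnf139 was at 0.30 (adjusted p = 0.0792) and Syvn1 at 0.25 (adjusted p = 0.153), and neither passed. Of 12 genes of the isoprenoid branch 1 rose, Nus1 at 0.92, and 0 fell. Under the knockout label 0 genes of fatty acid synthesis rose and 5 fell, 3 of lipoprotein uptake rose and 3 fell, 3 of the oxysterol list rose and 4 fell, 2 of SREBP processing rose and 0 fell, and 1 isoprenoid gene rose and 1 fell.

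In spleen, knockout against wild type, 2 of 32 members passed the test and both rose: Srebf2 and Idi1. Of all 20371 genes tested 0.0982% rose and 0.0785% fell. Srebf2 had a lowest, median and highest level of 146, 188 and 217 CPM in 9 knockout spleens, against 106, 132 and 165 CPM in 10 wild-type spleens. Idi1 had 11.7, 14.3 and 17.8 CPM in knockout spleens, against 8.68, 9.43 and 11.9 CPM in wild-type spleens. Most knockout spleens lay above most wild-type spleens for both genes, although the ranges overlapped. The log2 fold changes were 0.51 (SE 0.09, adjusted p = 0.0192) for Srebf2 and 0.53 (SE 0.09, adjusted p = 0.0215) for Idi1. Both calls were lost without knockout spleen 8, at adjusted p of 0.0556 for Srebf2 and 0.065 for Idi1, and without composition scaling, at 0.0697 for Srebf2 and 0.0507 for Idi1, where the median of all genes lay at -0.10. A block on the replicate number, which the labels tie to no animal or batch, also ended both calls in edgeR (adjusted p = 0.135 and 0.137).

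Counting Srebf2 and Idi1, 14 members had an unadjusted p under 0.05 in spleen, a rule that 17.4% of all genes met, and 13 of the 14 were higher in knockout spleens. Fdps, which joins isoprene units into farnesyl pyrophosphate, had 1.62, 3.14 and 5.61 CPM as lowest, median and highest level in knockout spleens, against 1.59, 1.93 and 2.12 CPM in wild-type spleens. Its upper end was knockout spleen 9, and every knockout spleen except number 6 lay above every wild-type spleen, at 0.75 on the log2 scale (SE 0.16, adjusted p = 0.0556). Fdps shares 1124 exonic bases with Gm43738, so reads of that gene may be among its counts. Sqle had 18.97, 23.3 and 27.7 CPM in knockout and 13.6, 16.6 and 23.4 CPM in wild-type spleens (0.44, SE 0.10, adjusted p = 0.0621), and the ranges overlapped. The other members with an unadjusted p under 0.05 and a value above 0 were Srebf1, Scap, Acat2, Mvk, Mvd, Lss, Cyp51, Msmo1 and Npc2, with log2 fold changes from 0.14 (Scap) to 0.62 (Mvk). Of the 18 synthesis enzymes 16 had a value above 0 (13 without composition scaling), with a median of 0.21 against 0.01 over all genes, and Nsdhl and Sc5d were below 0 at -0.06 and -0.10.

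Abca1 was the member with the lowest fold change in spleen. It had 6.78, 22.3 and 38.0 CPM as lowest, median and highest level in knockout spleens, against 17.2, 34.8 and 40.3 CPM in wild-type spleens. Knockout spleen 9 was the lowest and knockout spleen 6 the highest of its group, and the ranges overlapped widely. The log2 fold change was -0.55 (SE 0.22, adjusted p = 0.21, unadjusted p = 0.0198). The other efflux genes gave -0.02 for Abcg1, 0.05 for Nr1h3, 0.24 for Nr1h2 and -0.18 for Mylip, and none passed. Over all members 7 of 32 lay below 0 (48.1% of all genes), and 14 of 32 without composition scaling. Of the 59 tested genes in the related lists none passed in spleen with edgeR, where 0.0982% of all genes rose and 0.0785% fell. Of the 59, 9 had an unadjusted p under 0.05, a rule that 17.4% of all genes met.

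The number of members called in spleen depended on the test and on single libraries. It was 9 with DESeq2, 8 with limma voom and sample weights, and 5 without knockout spleens 4, 6 and 9. It ran from 0 to 10 when 1 spleen was left out, with 10 reached without knockout spleen 6 and 0 without knockout spleen 8. The number of all genes that rose moved as well. It was 20 of 20371 in the main fit, 448 with DESeq2, 383 with limma voom and 179 of 20886 without knockout spleens 4, 6 and 9. Without knockout spleen 6 it was 524 of 20615, and without knockout spleen 8 it was 4 of 20494. Spleen markers also varied. Summed macrophage markers were 326 to 928 CPM in knockout and 402 to 591 CPM in wild-type spleens. Knockout spleen 6 had the highest macrophage level and knockout spleen 9 the lowest, the spleens that were also highest and lowest of their group for Abca1. Summed dividing cell markers were 196 to 1075 CPM in knockout and 253 to 686 CPM in wild-type spleens, red cell precursor markers 204 to 1841 CPM in knockout and 244 to 1447 CPM in wild-type spleens. Dendritic cell markers were 8944 to 21000 CPM in knockout and 8577 to 13720 CPM in wild-type spleens, and exocrine pancreas markers 10.8 to 1928 CPM in knockout and 10.3 to 969 CPM in wild-type spleens. All markers of these 5 lists were detected in both groups and none of their genotype changes passed the test. Log2 fold changes above 0 were found for 4 of 4 red cell precursor markers (median 0.57), 5 of 5 dividing cell markers (0.26) and 5 of 5 pancreas markers (1.63). They were found for 4 of 5 macrophage markers (0.03) and 3 of 6 dendritic cell markers (0.08). In edgeR, 2 dendritic cell, 1 dividing cell and 1 pancreas marker had an unadjusted p under 0.05, all higher. The part of these markers in the levels of the members was not tested.

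**Figure D3:**
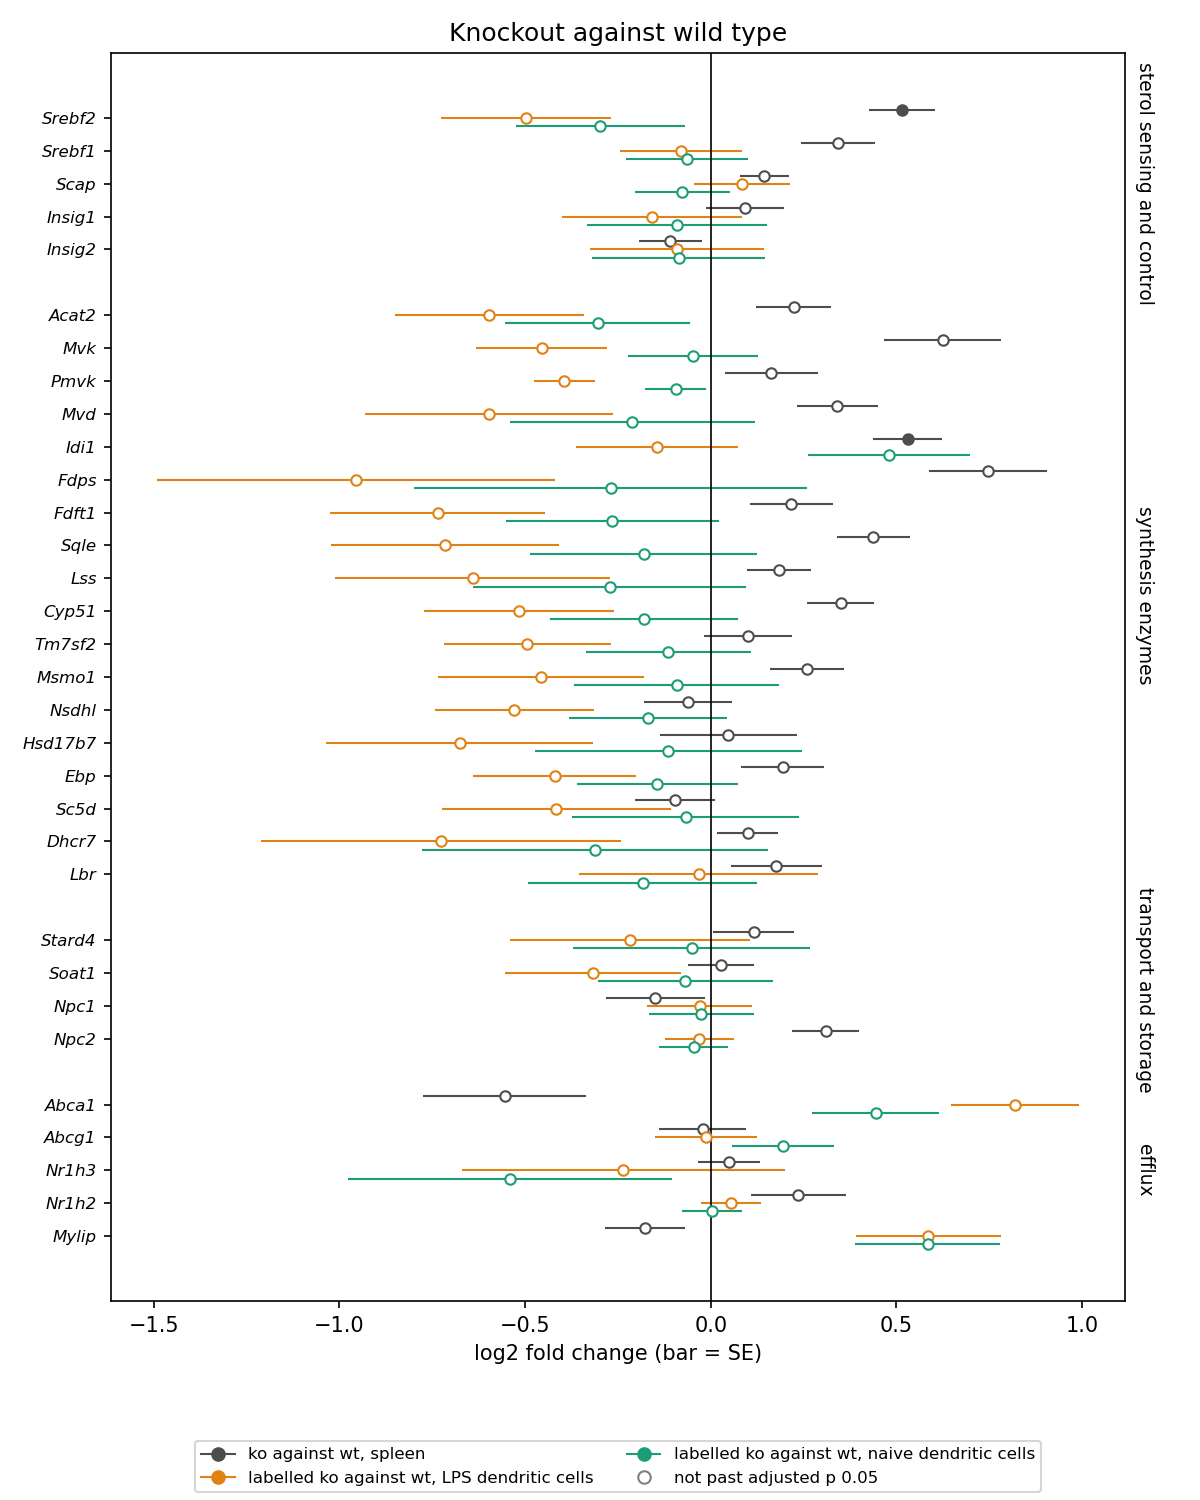
Log2 fold change of knockout against wild type for the 32 measured members by role, in spleens (grey), LPS-treated dendritic cells (orange) and naive dendritic cells (green), each with its SE from edgeR. Filled points, Srebf2 and Idi1 in spleen, passed an adjusted p of 0.05. Of the 18 synthesis enzymes 16 lie right of 0 in spleen (13 without composition scaling) and 18 left of 0 in LPS-treated cells (17), and Abca1 and Mylip lie on the other side in each.

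In LPS-treated dendritic cells labelled knockout against wild type, 0 of 32 members passed with edgeR (0% of 16965 genes). DESeq2 called Abca1 higher and Pmvk lower, and of all 16965 genes it called 220 higher and 149 lower. At an unadjusted p under 0.05 there were 8 members (11.3% of all genes). A value below 0 was found for 28 of 32 (51.7% of all genes), among them all 18 synthesis enzymes (17 without composition scaling), whose median was -0.52 against -0.01 over all genes. The groups did not overlap in log2 CPM for 12 of 32 members (17.8% of all genes). Pmvk (107, 95.6 and 104 CPM, against 138, 135 and 132 CPM in wild-type cells) differed by -0.39 on the log2 scale (SE 0.08, adjusted p = 0.185). Mvk had 30.9, 26.2 and 30.9 CPM in cells labelled knockout, against 35.2, 42.2 and 43.3 CPM in wild-type cells, with no overlap and a value of -0.46 (unadjusted p = 0.0257, adjusted p = 0.377). Sqle gave -0.71 (adjusted p = 0.417) and Srebf2 -0.50 (adjusted p = 0.443). Without the libraries that hold Gpr34 counts, Srebf2 was at -0.11, Sqle at -0.37, Pmvk at -0.35 and Mvk at -0.40, and none of them passed.

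Of the 5 efflux genes, Abca1 and Mylip stood on the other side in the LPS-treated cells. The list as a whole had a median of 0.05, with 3 genes above 0 and 2 below. Mean levels in cells labelled knockout and in wild-type cells were 229.5 and 231.4 CPM for Abcg1. They were 366.3 and 352.8 CPM for Nr1h2, and 10.66 and 12.55 CPM for Nr1h3. The Abca1 levels of 124, 143 and 152 CPM in cells labelled knockout all lay above the 69.1, 76.2 and 91.5 CPM of wild-type cells, a difference of 0.82 on the log2 scale (SE 0.17, adjusted p = 0.185). Mylip had 26.4, 25.9 and 25.7 CPM in cells labelled knockout, against 16.9, 14.3 and 20.8 CPM in wild-type cells, without overlap (0.59, SE 0.19, adjusted p = 0.314). Replicate 2, the LPS-treated library labelled knockout with 0 Gpr34 counts, lay on the same side as the others for both genes. Without the 3 libraries that hold Gpr34 counts Abca1 was at 0.62 (adjusted p = 0.477) and Mylip at 0.59 (adjusted p = 0.597). In that fit 1 library labelled knockout remains in the LPS-treated group, and it is assumed to vary like the other groups. All 18 synthesis enzymes were still below 0 there, with a median of -0.27, and 25 of 32 members, with a median of -0.14 over the 32.

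In naive cells labelled knockout against wild type, 0 of 32 members passed (0% of 16965 genes) and 2 had an unadjusted p under 0.05 (6.71% of all genes), Mylip and Abca1. Mylip had 21.2, 19.8 and 15.4 CPM in cells labelled knockout, against 10.8, 10.7 and 16.2 CPM in wild-type cells (0.58, SE 0.19, adjusted p = 0.673). Abca1 had 63.2, 99.8 and 99.6 CPM, against 62.6, 61.8 and 68.5 CPM in wild-type cells (0.44, SE 0.17, adjusted p = 0.729). The groups overlapped for both genes. Idi1 had 7.53, 8.86 and 6.13 CPM, against 5.64, 6.12 and 4.41 CPM in wild-type cells, and did not overlap (0.48, SE 0.22, adjusted p = 0.741). Idi1 was thus the 1 of 32 members without overlap, against 13.3% of all genes. Srebf2, Sqle and Abcg1 gave -0.30, -0.18 and 0.19 (adjusted p = 0.909, 0.975 and 0.886). Of the 5 efflux genes 4 were above 0, and Nr1h3 averaged 6.01 CPM in cells labelled knockout and 8.71 CPM in wild-type cells. Without replicate 3 and the other libraries that hold Gpr34, Mylip was at 0.54, Abca1 at 0.34, Idi1 at 0.34, Srebf2 at -0.12, Sqle at 0.13 and Abcg1 at -0.017, with adjusted p of at least 0.806. A value below 0 was found for 27 of 32 members (49.2% of all genes) and 17 of 18 synthesis enzymes, at a median of -0.17. That sign rested on replicate 3: without it 12 of 32 members and 5 of 18 synthesis enzymes were below 0, with medians of 0.04 and 0.07.

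Replicate 3 labelled knockout, which holds Gpr34, was low in synthesis enzymes in both treatments. The mean log2 CPM over the 18 enzymes was 4.26, 3.42 and 3.96 in LPS-treated replicates 2, 3 and 4 labelled knockout, against 4.47, 4.47 and 4.44 in wild-type replicates 1, 2 and 3. Naive cells had means of 4.86, 3.89 and 4.60 in the same replicates labelled knockout, against 4.71, 4.67 and 4.58 in wild-type replicates 1, 2 and 4. All 3 LPS-treated libraries labelled knockout lay below every wild-type one, whereas in naive cells replicate 3 alone lay below. The naive replicate 3 also had the lowest summed dividing cell markers of the naive libraries, 67.8 CPM against at least 200.9 CPM in the other 5, and the lowest macrophage markers, 694.5 CPM against at least 1065 CPM. Their part in the low synthesis genes was not tested.

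**Figure D4:**
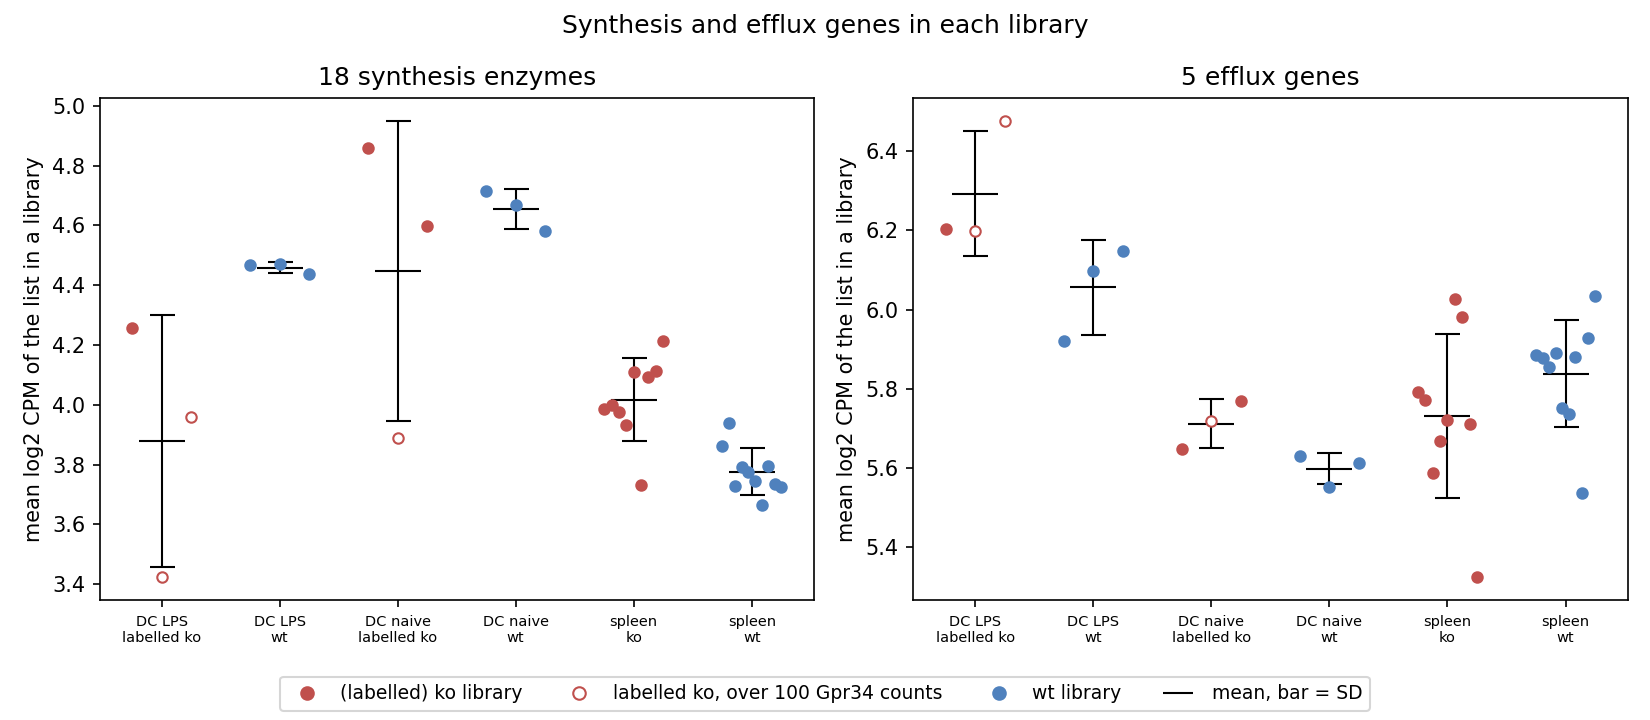
Mean log2 CPM over 18 synthesis enzymes (left) and 5 efflux genes (right) in each library of the 6 groups, with knockout or labelled knockout left of wild-type and axes that do not start at 0. Each point is 1 library, open points are libraries labelled knockout with over 100 Gpr34 counts, and bars show mean and SD. Every knockout spleen except number 6 lies above the wild-type median of 3.76 for synthesis, and in LPS-treated cells all labelled knockout points lie below the wild-type ones.

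Synthesis set beside efflux in each library gave the balance of the pair of programmes. The difference of the list means, synthesis minus efflux on the log2 scale, was -2.41 ± 0.42 in LPS-treated cells labelled knockout and -1.60 ± 0.13 in LPS-treated wild-type cells (SD, n = 3 each). It was -1.26 ± 0.53 in naive cells labelled knockout and -0.94 ± 0.08 in naive wild-type cells (SD, n = 3 each). In spleens it was -1.71 ± 0.31 in knockout (SD, n = 9) and -2.06 ± 0.16 in wild-type (SD, n = 10). After LPS every library lay at a lower difference in wild-type cells, from -1.71 to -1.45, than in naive wild-type cells, from -1.03 to -0.89. In spleen the ranges overlapped, from -2.30 to -1.11 in knockout and from -2.31 to -1.74 in wild-type, and the extremes of the knockout group were spleens 6 and 9. No test is given for these means, since the lists were chosen with earlier results known.

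The genotype sign was set side by side in the 2 sources, which share no library. Of 18 synthesis enzymes 16 (88.9%) were below 0 in LPS-treated dendritic cells and above 0 in spleen, a pattern of 34.0% of the 16317 genes tested in both. In naive cells and spleen the pattern held for 15 of 18 (83.3%) against 31.3% of all genes, and that share rests on replicate 3 as given above. The reverse pattern, above 0 in LPS-treated cells and below 0 in spleen, held for 2 of the 5 efflux genes, Abca1 and Mylip (40%), against 27.8% of all genes. The difference itself, the genotype effect in spleen minus that in naive cells, was tested in 1 fit of all 31 libraries. It called 0 of 32 members, against 0.0753% of 22585 genes called higher and 0.0841% called lower, and at an unadjusted p under 0.05 there were 9 members (12.7% of all genes), 7 above 0 and 2 below. The sign was above 0 for 26 of 32 members (50.6% of all genes), and for 21 of 32 without naive replicate 3. Srebf2 had the smallest p, with a difference of 0.81 (SE 0.22, p = 0.000968, adjusted p = 0.113), followed by Mylip at -0.76 (SE 0.22, adjusted p = 0.139), Abca1 at -1.003 (SE 0.39, adjusted p = 0.264) and Sqle at 0.62 (SE 0.27, adjusted p = 0.325). DESeq2 called Srebf2 (adjusted p = 0.0213) and Mylip (adjusted p = 0.0397) in this contrast, where it called 227 of 22585 genes higher and 299 lower. Without naive replicate 3 labelled knockout, edgeR put Srebf2 at 0.64 (adjusted p = 0.325) and Sqle at 0.31 (adjusted p = 0.746). Mylip and Abca1 stayed below 0 in every fit, at -0.64 and -0.89 at most.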

How the data were processed

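RNA was measured in 31 libraries: 12 of dendritic cells and 19 of spleens. The authors deposited whole-number read counts per Ensembl gene, 1 table per library, with no normalization. The submitters' processing notes name TopHat 1.3.3, Bowtie 0.0.9v, DESeq, SAMtools and bedtools, with mm9 as mouse build. Strandedness, annotation release and multi-mapping rules: not given in the sources used here. Overlapping genes are therefore uncertain, among them Fdft1 with Ctsb. Fdps shares 1124 exonic bases with Gm43738 on its own strand, the most of any member, and Idi1 shares 323 with Gm48574 on the other strand. Neither Gm43738 nor Gm48574 has an ID in the count files. A gene without a line in a table was set to 0, and 26090 of 29120 IDs were named. Exon lengths and overlaps were taken by Ensembl ID from GENCODE M21 (GRCm38), not from mm9. Even numbers made up 57.8 to 62.1% of the counts from 1 to 200, the cause of which was not tested. Libraries of 1 group always differed by more than sampling noise (smallest chi-square per gene 24.8).

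Genes were tested with edgeR 4.0.16 (R 4.3.3): filterByExpr, TMM factors, robust quasi-likelihood F-tests, and Benjamini-Hochberg adjustment over all genes at 0.05. The 12 dendritic cell libraries entered 1 fit (8 residual degrees of freedom), the 19 spleens another (17), and all 31 libraries another (25). Each SE was taken as the size of the log2 fold change over the root of its F. CPM use TMM-scaled library sizes, and log2 CPM a prior count of 0.5. Members and lists were chosen with earlier results of these data known. Named per LPS contrast were the 6 members with the smallest p among those that passed, plus Srebf2, Insig1, Sqle, Abca1, Abcg1 and Nr1h3, and per genotype contrast all that passed or the smallest p up to 4. Of each related list up to 3 genes were named by p in the wild-type LPS contrast. Promoter sequences matched 27 of 33 members. Alternatives were DESeq2 1.42.0, limma 3.58.1 (voom with sample weights), a replicate block, fits on the compared libraries alone, no filter, RLE scaling, no composition scaling, removal of GC content and length trends (lowess span 0.3), and omission of libraries. The tests were first tested on simulated counts.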

Additional observations from a re-analysis of the deposited data

Results flagged for a closer look

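In 4 of 64 groups of spleens tested, 1 library stood apart from the rest of its group, and chance alone marks about 1 in 20 groups. Srebf1 had 6.79 log2 CPM in wild-type spleen 5, against 7.27 in the nearest other wild-type spleen. Acat2 had 3.92 log2 CPM in knockout spleen 6, against 4.48 in the nearest other knockout spleen. In wild-type spleen 8, Abca1 had 4.10 log2 CPM, against 4.83 in the nearest other, and Mylip had 4.13, against 4.55.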

How the results depend on the processing

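Of 1264 recomputed single-gene values, 1200 kept their direction and side of the threshold, 34 lost and 21 gained a call, and 9 reversed; the cause was not tested. For LPS in wild-type cells, members that rose numbered 1 and members that fell 11 without composition factors. They numbered 10 and 9 with only the libraries compared, and 10 and 9 without the libraries labelled knockout that hold Gpr34. With limma voom 8 fell. Leaving out 1 library gave 5 to 6 that rose and 4 to 7 that fell. In cells labelled knockout 1 rose and 13 fell without composition factors, 3 rose and 4 fell with only the libraries compared, and 3 rose without those that hold Gpr34. Leaving out 1 library gave 3 to 5 that rose and 4 (without naive replicate 2) to 11 (without naive replicate 3) that fell. Without composition factors 1599 of all 16965 genes rose and 6128 fell in wild-type cells, and 1441 rose and 4986 fell in cells labelled knockout. For LPS in wild-type cells Sqle reversed to -0.31 and Abca1 to -0.12 without composition factors, and leaving out 1 library gave -0.0014 to 0.17 for Sqle and -0.11 to 0.009 for Srebf2. For genotype in naive cells, leaving out 1 library gave -0.026 to 0.27 for Abcg1 and -0.54 to 0.12 for Sqle, and without the libraries that hold Gpr34 these were -0.017 and 0.13. For genotype after LPS, DESeq2 called 1 member higher and 1 lower (220 and 149 of 16965 genes).

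In spleen, members that rose numbered 9 with DESeq2, 8 with limma voom, 0 without composition factors, 5 without knockout spleens 4, 6 and 9, and 4 with GC content and length removed. Of all genes 448, 383, 7, 179 and 50 rose in those fits. Leaving out 1 spleen gave 0 to 10 members. The labels tie no animal or batch to a replicate number, and not every same-numbered pair correlated above 0.1, so the block is given here as an alternative: correlations of same-numbered libraries ran from -0.08 to 0.061 in dendritic cells and from -0.062 to 0.299 in spleens, where 5 of 9 pairs, at 0.14 to 0.299, correlated best with their own number, a hint from the data and not from the design. With the replicate block 0 members passed in spleen, with Srebf2 at 0.51 (adjusted p = 0.135) and Idi1 at 0.56 (adjusted p = 0.137), and 2 of all genes rose. With the block and GC content and length removed 1 member passed, and 4 of all genes rose. The block gave 0.11 for Srebf2 after LPS in wild-type cells. For spleen minus naive cells DESeq2 called 1 member higher and 1 lower (227 and 299 of 22585 genes). There limma voom called 1 higher (88 genes), and leaving out 1 library gave 0 to 1 higher. The replicate numbers aside, genotype results in dendritic cells rest on 3 libraries a group. Of those labelled knockout, naive replicate 3 held 120 Gpr34 counts, below every naive wild-type library. LPS-treated replicates 3 and 4 labelled knockout held 117 and 104, within the range of LPS-treated wild-type cells. Whether any of these labels is wrong was not tested.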
